A study of Mus musculus with 9 samples.

Results

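The genes of the acrosome and of sperm-egg fusion were examined in testis RNA of Prm2-deficient mice. They were taken from a fixed list of 35 genes, defined by name and not by a cut on measured values. Earlier results of these data were known when genes and lists were chosen. Of the 35, 32 had a row among the 38685 genes and loci of the expression table. Acrbp, Izumo1 and Pick1 had no row and were not analysed here. Total testis RNA was sequenced from the transcript 3′ end in 9 libraries, 3 from Prm2+/+, 3 from Prm2+/- and 3 from Prm2-/- males, all of the C57BL/6 strain. The Prm2 lines came from CRISPR/Cas9 editing in oocytes, the mutation is present in every cell of the animal, and each library stood for 1 of 3 biological replicates of its genotype. The ages of the mice are not given in the sources used here. The comparison of Prm2-/- with Prm2+/+ testes asked whether loss of protamine 2, which packs DNA in the sperm head, goes with a change in transcripts, and Prm2+/- males served as a second control.

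The acrosome is a secretory vesicle that spreads over the spermatid nucleus from Golgi-derived material while the nucleus is remodelled. Its matrix holds proteases, protease inhibitors and proteins that meet the zona pellucida, its membranes carry proteins that become exposed at the acrosome reaction, and a further set of sperm surface proteins acts when the gametes fuse. Most of these genes are transcribed in spermatocytes and round spermatids, before protamines enter the nucleus, and their transcripts can be stored until elongation. In whole testis, fewer cells of a type and less RNA per cell cannot be told apart.

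No acrosome or fusion gene passed the test in any genotype comparison. Of the 32 genes with a row, 30 had enough counts to be tested. A gene was called when its adjusted p from limma was under 0.05 and its log2 fold change (LFC) was beyond 0.5 in either direction. Between Prm2-/- and Prm2+/+, 0 of 30 were called, where 0.181% of the 14893 genes and loci tested were. Between Prm2+/- and Prm2+/+, 0 of 30 were called against 0.0806% of all, and between Prm2-/- and Prm2+/- the count was 0 of 30 against 0.175% of all. With so few calls over the whole table, a count of 0 among 30 genes sets them no further apart from other genes. Between Prm2-/- and Prm2+/+, 16 of the 30 had a higher and 14 a lower fitted value in Prm2-/-, with a median LFC of 0.00 beside 0.02 over all genes tested, and the single values ran from -0.75 for Zp3r to 1.84 for Izumo4. The 95% interval of the LFC lay within 0.5 of 0 in either direction for 14 of the 30 genes and within 1 for 22. For the other 8 genes the interval reached beyond 1 on the log2 scale, so a change of that size could pass undetected at this spread.

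**Figure D1:**
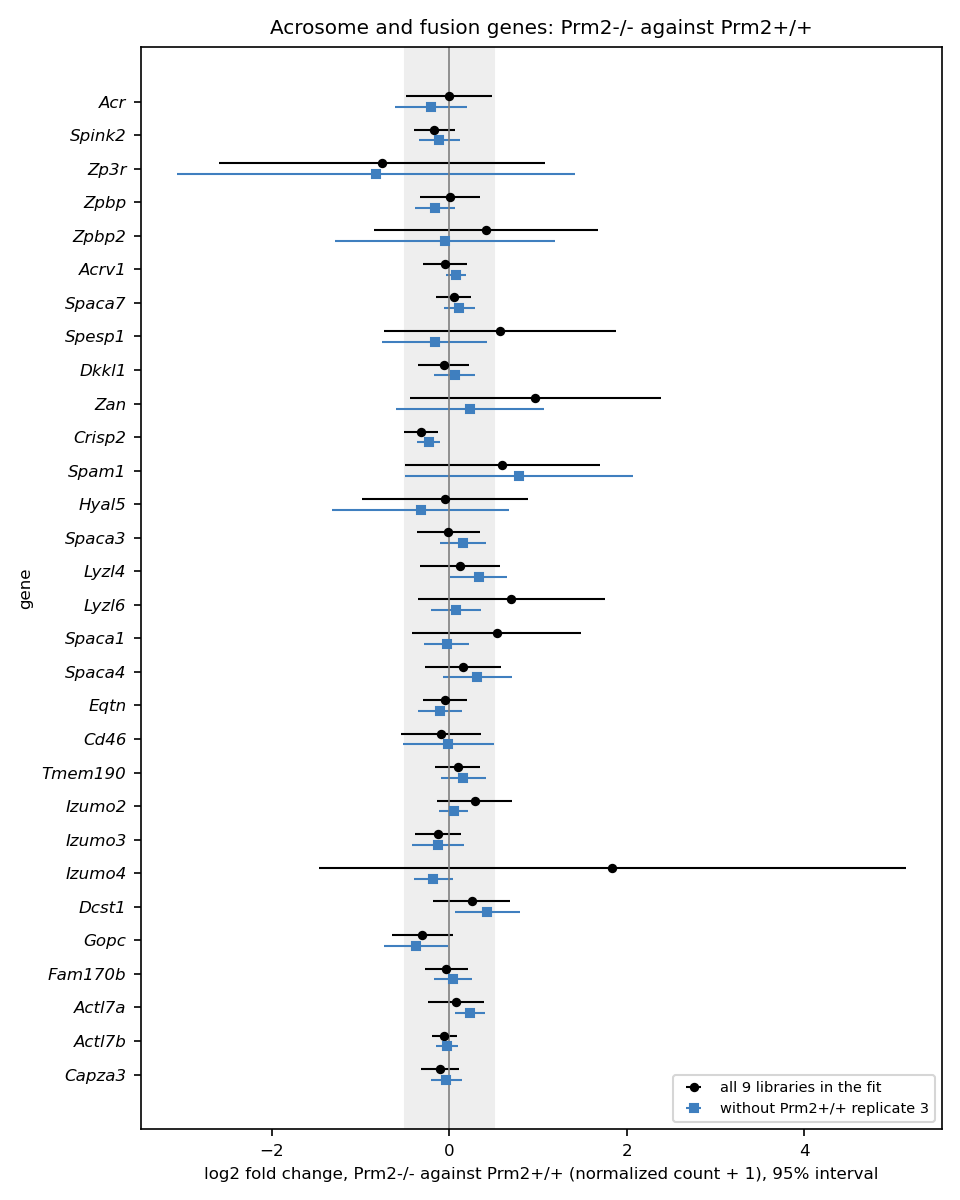
Log2 fold change of Prm2-/- against Prm2+/+ (horizontal axis, on normalized count + 1) for the 30 tested genes (vertical axis), with 95% intervals, from all 9 libraries (black circles) and without Prm2+/+ replicate 3 (blue squares). The grey band marks 0.5 in either direction. The widest interval, that of Izumo4, and its value of 1.84 shrink to near 0 without that library.

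One library stood apart from the rest and has to be known before single genes are read. Prm2+/+ replicate 3 had a median Spearman correlation of 0.867 with the other libraries over the tested genes, where the other 8 libraries had 0.913 to 0.922. Depth was of one order throughout, with 3629929 to 4490411 counts per library, though Prm2+/+ replicate 3 was the lowest. It also had the fewest genes and loci above 0, with 19028 against 19873 to 20526 in the others. In Prm2+/+ replicate 3, 6 of the 30 genes lay more than 2-fold below their median in the other 8 libraries, namely Zpbp2, Spesp1, Zan, Lyzl6, Spaca1 and Izumo4. In each other library this held for 0 or 1 gene. Over all tested genes the share was 15.2% in that library and 3.56% to 5.67% in the others, so low values in that library ran through the whole table. Prm2+/+ replicate 3 also gave the highest of all 9 values for 12 genes, Crisp2, Spink2 and Dkkl1 among them, and the lowest for 8. Over all tested genes, 23.9% had their highest and 25.6% their lowest value in that library. For the 30 tested genes, LFCs of Prm2-/- against Prm2+/+ without it are given below beside those with it. When it was left out, an unadjusted p under 0.05 between Prm2-/- and Prm2+/+ was reached by 5 of the 30 (Crisp2, Dcst1, Actl7a, Gopc and Lyzl4) beside 8.4% of all genes, and 0 were called beside 0.295%. Between Prm2+/- and Prm2+/+ that fit gave an unadjusted p under 0.05 to 2 of the 30 (Actl7a and Izumo4) beside 4.19% of all genes, and called 0 beside 0.235%. The LFCs of that comparison ran from -0.29 for Zpbp2 to 1.78 for Izumo4 with all libraries, and from -0.75 for Zpbp2 to 0.19 for Lyzl6 without Prm2+/+ replicate 3.

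**Figure D2:**
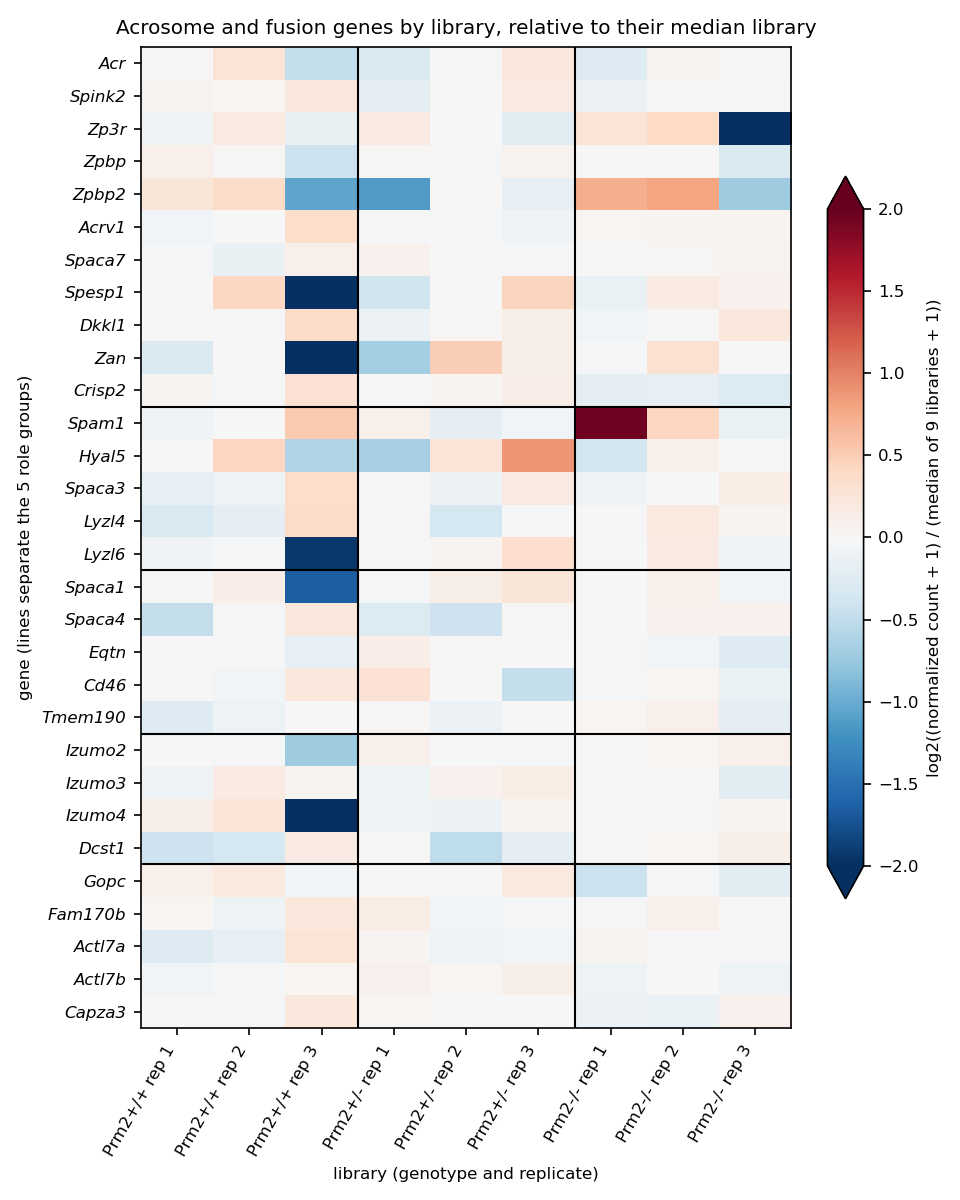
Each tested gene (rows, in 5 role groups) in each of the 9 libraries (columns), as the log2 ratio of normalized count + 1 to the same for the gene's median library, with colours ending at 2 in either direction. The strongest blue cells of the third column are Spesp1, Zan, Lyzl6, Spaca1 and Izumo4 in Prm2+/+ replicate 3, and single cells stand out for Zp3r in Prm2-/- replicate 3 and Spam1 in Prm2-/- replicate 1.

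Among the 12 genes of the acrosomal matrix and zona binding, 11 were tested and 0 were called. Crisp2, which encodes a cysteine-rich secretory protein of the acrosome and the sperm tail, was the most abundant member. Prm2+/+ testes held 17490, 16552 and 20395 normalized counts of it, Prm2+/- testes 16763, 17426 and 18431, and Prm2-/- testes 14764, 14921 and 13831. All 3 Prm2-/- libraries lay below all 6 others, while the Prm2+/+ and Prm2+/- libraries overlapped. The mean in Prm2-/- was 0.799 times that in Prm2+/+, with an LFC of -0.32 (SE 0.08, 95% interval -0.51 to -0.13) and an adjusted p of 0.430 from limma. Against Prm2+/- the LFC was -0.27, with an adjusted p of 0.788 from limma. That fit shares its spread with Prm2+/+ replicate 3, and without this library the same LFC had an adjusted p of 0.144 from limma. Between Prm2+/- and Prm2+/+ it was -0.04 with an adjusted p of 0.910, and 0.04 without Prm2+/+ replicate 3. Without Prm2+/+ replicate 3, which held the highest Crisp2 value, the Prm2-/- mean was 0.852 times the Prm2+/+ mean and the LFC was -0.23, with an adjusted p of 0.332. The difference from Prm2+/+ was thus larger than the spread within the groups for this gene taken alone, with an unadjusted p of 0.00448 in the limma fit. It did not hold after adjustment over all genes in that fit, and its LFC stayed under the 0.5 limit. Of 10 marker lists, 1, that of peritubular cells, had sums lower in all Prm2-/- than in all Prm2+/+ libraries. Over all single genes tested, 7.10% lay wholly lower in this comparison. The peritubular sums were also wholly lower in Prm2+/- than in Prm2+/+, where Crisp2 overlapped. The 4 peritubular markers, of which 3 were tested, summed to 293 to 325 in Prm2+/+, 254 to 277 in Prm2+/- and 226 to 271 in Prm2-/- libraries. None was at 0 in every library. Acta2 and Cnn1, genes of contractile cells, had LFCs of -0.27 and -0.76 between Prm2-/- and Prm2+/+ (adjusted p 0.604 and 0.522 from limma). Myh11 had -0.28 (adjusted p 0.743 from limma) with libraries that overlapped, and the untested Tagln overlapped as well. The part of these cells in the Crisp2 difference was not tested.

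A stretch upstream of a Crisp2 start is shown because Crisp2 was the only tested member whose Prm2-/- libraries lay apart from both control genotypes. The share of all genes that lay apart in this way was not counted, so Crisp2 is not set beyond other genes by it. Crisp2 lies on the minus strand of chromosome 17, at chr17:40764020-40807003 of GRCm38. The 60 bases below, at chr17:40794211-40794270 on the minus strand in RefSeq's GRCm38.p6 annotation, lie upstream of a RefSeq start that lies inside this extent (the stretch begins 12733 bases downstream of the extent's 5′ end) and read 5′ to 3′, with the letters TATAAA in capitals 97 bases before that start.
Crisp2: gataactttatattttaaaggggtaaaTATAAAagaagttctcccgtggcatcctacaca
The TATA box letters TATAAA, the CCAAT box letters CCAAT and the letters TGACGT, the core of the element that CREM binds in spermatids, were searched on both strands of the 250 bases before each RefSeq start, a choice made after the values were seen. RefSeq promoters were at hand for 31 of the 35 listed genes. TATAAA was found for 2 of the 31, Crisp2 and Spaca7, which is 6.45% beside 14.3% of all genes. TGACGT was found for 4 (12.9% beside 7.29%), namely Acrbp, Izumo1, Lyzl4 and Tmem95, and CCAAT for 11 (35.5% beside 37.5%). These matches describe the letters and not sites in use.

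Spink2, an inhibitor of serine proteases in the acrosome, was the other gene whose Prm2-/- and Prm2+/+ libraries did not overlap. Prm2+/+ testes held 2799, 2723 and 3123 normalized counts of it, Prm2+/- testes 2350, 2659 and 3015, and Prm2-/- testes 2456, 2607 and 2621. The Prm2-/- libraries lay below the Prm2+/+ libraries but inside the range of the Prm2+/- libraries. The LFC of Prm2-/- against Prm2+/+ was -0.17 (SE 0.10), with an adjusted p of 0.740 from limma, and -0.11 without Prm2+/+ replicate 3, with an adjusted p of 0.788.

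**Figure D3:**
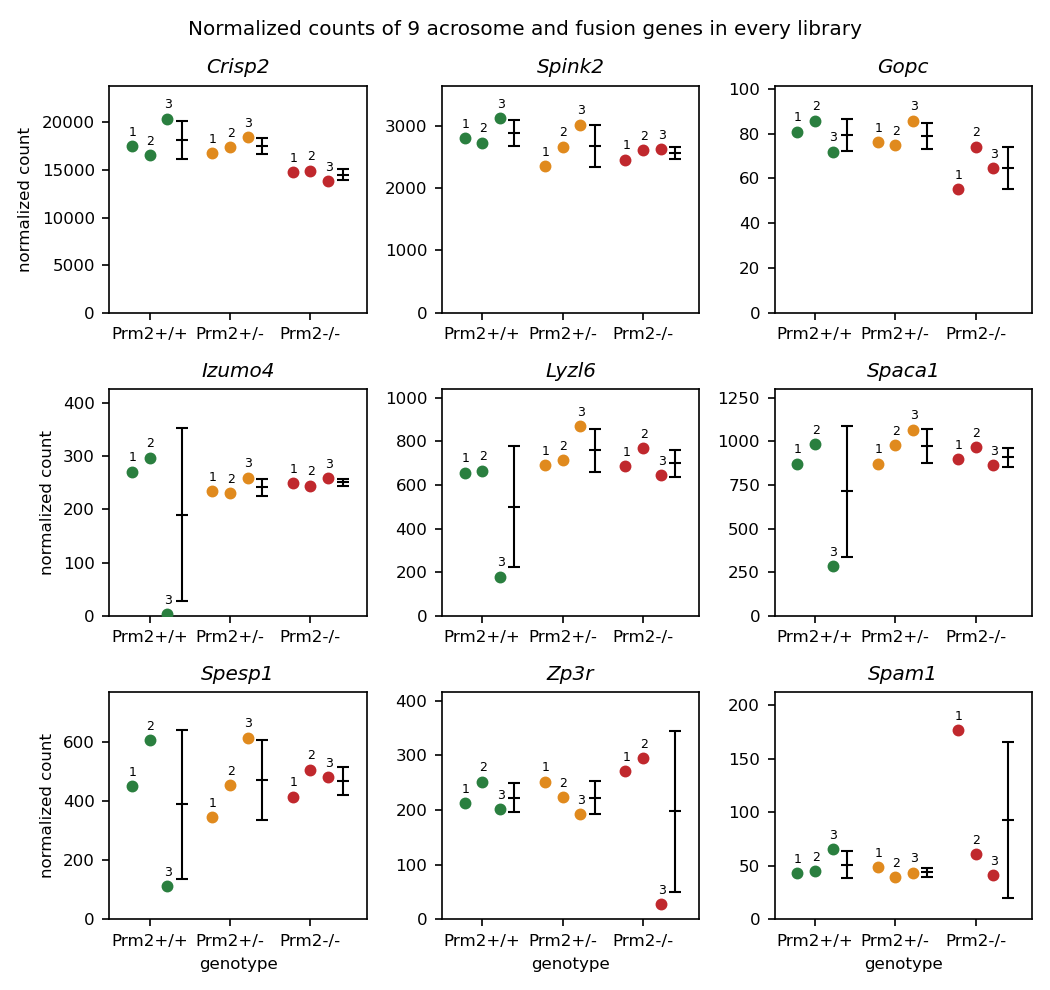
Normalized counts (vertical axes, each starting at 0) of 9 genes by genotype (horizontal axis), with 1 coloured point per library marked by its replicate number and, at the right of each group, the mean and SD (n = 3). Crisp2 shows all Prm2-/- points below every other point, Izumo4, Lyzl6, Spaca1 and Spesp1 show 1 low Prm2+/+ point, and Zp3r and Spam1 show 1 Prm2-/- point apart.

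Several genes of the matrix group varied more between single libraries than between genotypes. Zan encodes zonadhesin, a protein that binds the zona pellucida, and was the least abundant tested member. It measured 17.1, 21.4 and 3.31 in Prm2+/+, 12.9, 30.1 and 23.0 in Prm2+/-, and 20.8, 26.4 and 21.1 in Prm2-/- testes. Its LFC of 0.97 between Prm2-/- and Prm2+/+ became 0.23 without Prm2+/+ replicate 3, whose value rested on 3 counts. Spesp1, a protein of the equatorial segment, measured 449.5, 604.4 and 111.6 in Prm2+/+, 344.0, 453.1 and 614.1 in Prm2+/-, and 413.9, 505.3 and 480.5 in Prm2-/- testes. The groups overlapped, and its LFC turned from 0.57 to -0.16 without Prm2+/+ replicate 3. Zp3r, a zona-binding protein of the acrosomal matrix also known as sp56, measured 212.9, 251.8 and 201.1 in Prm2+/+, 252.1, 222.9 and 192.6 in Prm2+/-, and 270.8, 294.3 and 27.5 in Prm2-/- testes. The low library, Prm2-/- replicate 3, held 26 counts (exact Poisson interval 17.9 to 40.2 in normalized counts). The Zp3r LFC of Prm2-/- against Prm2+/+ was -0.75 with that library and 0.35 without it. It was -0.82 without Prm2+/+ replicate 3. Intervals on counts cover counting error only, since reads without molecular identifiers are not independent molecules. They also take the recovered counts as tallies of reads, which quantities from StringTie may not be.

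The paralogs Zpbp and Zpbp2 encode zona pellucida binding proteins of the acrosome. Zpbp measured 1258, 1195 and 872 in Prm2+/+, 1196, 1160 and 1233 in Prm2+/-, and 1172, 1175 and 966 in Prm2-/- testes, with an LFC of 0.01 between Prm2-/- and Prm2+/+ and -0.16 without Prm2+/+ replicate 3. Zpbp2 measured 91.2, 100.7 and 36.5, then 34.6, 76.7 and 68.0, then 127.7, 133.9 and 46.5 in the same order of genotypes, with an LFC of 0.41 and of -0.05 without that library. Each genotype held a low Zpbp2 library, and all groups overlapped for both genes. Per kilobase of exon, Zpbp averaged 267 and Zpbp2 47.3 normalized counts over the 9 libraries. The remaining matrix genes are given by their range. Acr, the protease acrosin, ranged from 435 to 730 over the 9 libraries, Acrv1 (the acrosomal protein SP-10) from 1302 to 1744, Spaca7 from 510 to 607 and Dkkl1, a protein of the acrosome related to the Dickkopf family, from 4680 to 6525. Their LFCs of Prm2-/- against Prm2+/+ lay between -0.06 for Dkkl1 and 0.05 for Spaca7. With Prm2+/+ replicate 3 left out they were -0.21 for Acr, 0.08 for Acrv1, 0.11 for Spaca7 and 0.06 for Dkkl1. Acr, Acrv1 and Dkkl1 thus turned sign, Acr from 0.000442 with all libraries.

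All 5 hyaluronidase and lysozyme-like genes were tested and 0 were called. Spaca3, a lysozyme-like acrosomal protein, had the highest mean of this group. It measured 903, 943 and 1292 in Prm2+/+, 1022, 933 and 1156 in Prm2+/-, and 952, 1016 and 1120 in Prm2-/- testes. The groups overlapped throughout, with an LFC of -0.01 between Prm2-/- and Prm2+/+ and 0.15 without Prm2+/+ replicate 3. Lyzl6, another lysozyme-like protein of sperm, measured 655.7, 666.6 and 180.1 in Prm2+/+, 691.1, 715.2 and 869.5 in Prm2+/-, and 686.5, 768.2 and 645.2 in Prm2-/- testes. Its LFC of 0.70 between Prm2-/- and Prm2+/+ became 0.08 without Prm2+/+ replicate 3. Its relative Lyzl4 measured 203.4, 221.8 and 329.3 in Prm2+/+, 255.1, 197.3 and 250.1 in Prm2+/-, and 251.8, 289.2 and 262.9 in Prm2-/- testes. Prm2+/+ replicate 3 was the highest library for Lyzl4 and the lowest for Lyzl6. The LFC of Lyzl4 was 0.12 with all libraries and 0.33 without that one, with an adjusted p of 0.583 from limma in the latter fit.

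The hyaluronidases Spam1 (PH-20) and Hyal5, which act on the matrix around the oocyte, lie 56948 bp apart on chromosome 6. Spam1 measured 42.8, 45.0 and 65.2 in Prm2+/+, 48.4, 39.3 and 43.3 in Prm2+/-, and 176.6, 60.9 and 41.2 in Prm2-/- testes. One library, Prm2-/- replicate 1, lay above the rest, and the other 8 ranged from 39.3 to 65.2. Hyal5 measured 157.7, 213.3 and 103.9 in Prm2+/+, 98.9, 189.1 and 290.7 in Prm2+/-, and 120.4, 169.5 and 154.2 in Prm2-/- testes. The library that was high for Spam1 was not high for Hyal5. The LFCs of Prm2-/- against Prm2+/+ were 0.60 for Spam1 and -0.05 for Hyal5, and neither was called. They were 0.79 and -0.32 without Prm2+/+ replicate 3, and without Prm2-/- replicate 1 the Spam1 LFC was 0.00.

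Among the 5 acrosomal membrane genes, all were tested and 0 were called. Spaca1, a protein of the inner acrosomal membrane, had both the highest mean and the largest LFC of the group. It measured 870.4, 983.8 and 285.1 in Prm2+/+, 870.0, 975.6 and 1066 in Prm2+/-, and 896.6, 966.0 and 861.7 in Prm2-/- testes. The single low value was again Prm2+/+ replicate 3, and the LFC went from 0.54 to -0.03 without it. Spaca4, a surface-anchored protein of the acrosomal membrane, ranged from 341 to 555, Eqtn (equatorin) from 286 to 377, Cd46, a complement regulator found on the acrosomal membrane of mouse sperm, from 61.9 to 105.8, and Tmem190 from 457 to 584. Their LFCs of Prm2-/- against Prm2+/+ lay between -0.09 for Cd46 and 0.15 for Spaca4. These values without Prm2+/+ replicate 3 were 0.32 for Spaca4, 0.16 for Tmem190, -0.01 for Cd46 and -0.10 for Eqtn.

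Of the 7 gamete fusion genes, 4 were tested, 2 had too few counts and Izumo1 had no row. The rule called 0 of the 4. Izumo2, Izumo3 and Izumo4 are relatives of the fusion protein that Izumo1 encodes. Izumo2 measured 696.5, 682.6 and 421.0 in Prm2+/+, 747.4, 686.0 and 684.8 in Prm2+/-, and 692.8, 714.4 and 741.3 in Prm2-/- testes. Izumo3 measured 335.4, 391.1 and 362.4, then 331.2, 372.7 and 388.8, then 350.5, 350.1 and 297.8 in the same order. Both overlapped between genotypes, with LFCs of Prm2-/- against Prm2+/+ of 0.29 and -0.13. Without Prm2+/+ replicate 3, the lowest library for Izumo2, they were 0.05 and -0.13. Izumo4 measured 270.8, 296.8 and 3.31 in Prm2+/+, 234.3, 230.2 and 259.8 in Prm2+/-, and 249.0, 244.6 and 258.7 in Prm2-/- testes. In Prm2+/+ replicate 3 it rested on 3 counts (exact Poisson interval 0.684 to 9.69 in normalized counts), while the other 8 libraries held 230 to 297. The Izumo4 LFC was 1.84 (95% interval -1.47 to 5.14) with all libraries and -0.18 without that one. Per kilobase of exon, the means over 9 libraries were 931 for Izumo2, 279 for Izumo3 and 81.3 for Izumo4 normalized counts.

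Dcst1 and Dcst2 encode membrane partners needed for fusion, and their genes overlap on opposite strands of chromosome 3. Dcst1 measured 159.6, 167.2 and 237.6 in Prm2+/+, 216.5, 148.9 and 185.6 in Prm2+/-, and 212.8, 219.2 and 230.2 in Prm2-/- testes. Its LFC of Prm2-/- against Prm2+/+ was 0.25 with all libraries, and 0.43 without Prm2+/+ replicate 3, where the adjusted p was 0.546 from limma. Dcst2 had 8 counts each in Prm2-/- replicates 2 and 3 and 0 in the other 7 libraries, and was not tested. Whether counting used the strand is not given in the sources used here, so counts of this pair may not be fully separate. Tmem95, another fusion factor, had 0 counts in all 9 libraries, which allows up to 3 counts per library.

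Of the 6 genes of acrosome biogenesis, trafficking and the perinuclear theca, 5 were tested and 0 were called. The actin-related genes Actl7a and Actl7b, whose proteins sit between the acrosome and the nucleus or in the cytoplasm of spermatids, lie 1969 bp apart on chromosome 4. Actl7b measured 2473, 2484 and 2621 in Prm2+/+, 2702, 2627 and 2760 in Prm2+/-, and 2370, 2555 and 2379 in Prm2-/- testes. Its Prm2+/- libraries lay above those of both other genotypes, by an LFC of 0.09 over Prm2+/+ (0.12 without Prm2+/+ replicate 3). Its LFC of Prm2-/- against Prm2+/- was -0.15 with an adjusted p of 0.891 from limma, and of 0.538 without Prm2+/+ replicate 3. Against Prm2+/+ its Prm2-/- LFC was -0.05, and -0.03 without that library. Actl7a measured 652.8, 695.5 and 942.5 in Prm2+/+, 816.6, 728.0 and 753.7 in Prm2+/-, and 815.0, 782.4 and 783.5 in Prm2-/- testes. The Prm2-/- and Prm2+/- libraries overlapped, and Prm2+/+ replicate 3 lay above both while the other Prm2+/+ libraries lay below both. Its LFC of Prm2-/- against Prm2+/+ was 0.07, and 0.24 without that library, where the adjusted p was 0.477 from limma. Per kilobase of exon, Actl7b averaged 1774 and Actl7a 512 normalized counts.

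Gopc encodes a Golgi-associated protein needed for fusion of vesicles into the acrosome. It measured 80.8, 85.7 and 71.8 in Prm2+/+, 76.1, 74.9 and 85.7 in Prm2+/-, and 55.2, 74.1 and 64.4 in Prm2-/- testes. All Prm2-/- libraries lay below the Prm2+/- libraries, but 1 lay inside the Prm2+/+ range. Its LFC was -0.30 against Prm2+/+ (adjusted p 0.716) and -0.29 against Prm2+/- (adjusted p 0.958) in the limma fits. Without Prm2+/+ replicate 3, the lowest Prm2+/+ library for Gopc, the former was -0.37 with an adjusted p of 0.580. The latter kept its LFC, with an adjusted p of 0.625 from limma. Fam170b, an acrosomal protein, ranged from 718 to 896 and Capza3, a spermatid form of an actin capping subunit, from 1098 to 1391, with LFCs of -0.03 and -0.11 between Prm2-/- and Prm2+/+, which were 0.05 and -0.03 without Prm2+/+ replicate 3.

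Genes whose libraries did not overlap between genotypes were counted beside the same count over all genes. Between Prm2-/- and Prm2+/+, 0 of 30 genes lay wholly higher in Prm2-/-, where 6.92% of all genes did, and 2 lay wholly lower (Spink2 and Crisp2), where 7.10% did. An unadjusted p under 0.05 was held by 1 of 30, Crisp2, beside 7.33% of all genes. Between Prm2+/- and Prm2+/+, 2 genes lay wholly higher (Lyzl6 and Actl7b, the former by an LFC of 0.81 that was 0.19 without Prm2+/+ replicate 3) beside 4.88%, 0 wholly lower beside 4.56%, and 0 had an unadjusted p under 0.05 beside 4.24%. Between Prm2-/- and Prm2+/-, 1 gene lay wholly higher (Acrv1, by an LFC of 0.10) beside 7.47%, 3 lay wholly lower (Crisp2, Gopc and Actl7b) beside 7.25%, and 2 had an unadjusted p under 0.05 (Crisp2 and Actl7b) beside 5.44%. The comparisons share libraries, so these counts are not independent of each other.

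The summed level of the 30 tested genes in normalized counts was 41855 ± 2527 for Prm2+/+, 41441 ± 2104 for Prm2+/- and 38149 ± 696 for Prm2-/- testes (SD, n = 3). Crisp2 alone made up 41.2% to 45.6% of that sum in Prm2+/+, 42.1% to 42.7% in Prm2+/- and 36.6% to 39.1% in Prm2-/- libraries. Without Crisp2, the sums were 23709 ± 638, 23901 ± 1279 and 23644 ± 588 (SD, n = 3), and the groups overlapped. The means of the sums without Crisp2 differed by less than their SDs.

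**Figure D4:**
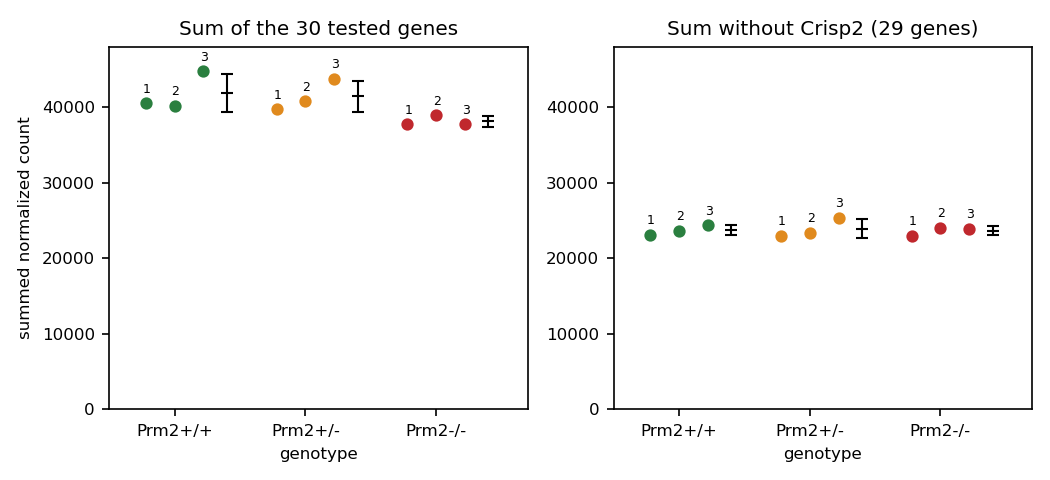
Summed normalized count (vertical axis, from 0) of the 30 tested genes (left) and of the same genes without Crisp2 (right) by genotype (horizontal axis), with 1 point per library marked by its replicate number and the mean and SD (n = 3). The Prm2-/- points lie below the others on the left and among them on the right.

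Over the 9 libraries, 21 of the 30 genes had a coefficient of variation under 20%, and 25 did when Prm2+/+ replicate 3 was left out. Per kilobase of exon, the mean over 9 libraries ran from 5937 normalized counts for Crisp2, through 3434 for Spink2 and 3359 for Dkkl1, down to 0.988 for Zan. Since tags were read from the transcript end, division by length can understate long transcripts. Of these 3 highest levels, Spink2 and Dkkl1 differed by less than their SD of 313 and 371 over the 9 libraries.

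For the 5 genes whose highest library exceeded the lowest more than 4-fold at a mean of at least 20, the genes with the most similar pattern over the 9 libraries were sought by Pearson correlation, as a description. Izumo4 was closest to Gtf2a2 (r = 0.999), Tmem98 and Gar1, Lyzl6 to Ppp1r14a (r = 0.998), BC048502 and Wfdc15a, and Spesp1 to Bnipl (r = 0.994), Snhg6 and Snrpf. All of these share the low Prm2+/+ replicate 3, where Gtf2a2 measured 45.3 against a mean of 913 over the 9 libraries. Zp3r was closest to Cdk5rap1 (r = 0.989), Pde4a and H2-DMa, and Spam1 to Map1lc3b (r = 0.982), 1700029H14Rik and AI837181. Each of these correlations over 9 libraries can rest on 1 library.

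Other genes of the same processes were tested in the same fit. Of 13 further genes of acrosome biogenesis, 13 were tested and 0 were called in either direction in any comparison. Of 21 further genes of sperm-egg interaction, 18 were tested and again 0 were called in either direction in any comparison. Their median LFCs of Prm2-/- against Prm2+/+ were -0.04 and -0.05, beside 0.02 over all genes. The gene furthest from 0 was Csnk2a2, which encodes a catalytic subunit of casein kinase 2 and whose loss in mice gives round-headed sperm. Csnk2a2 measured 52.3, 84.7 and 249.7 in Prm2+/+, 75.1, 82.2 and 35.3 in Prm2+/-, and 333.3, 393.7 and 308.3 in Prm2-/- testes. All 3 Prm2-/- libraries lay above all 6 others, of which Prm2+/+ replicate 3 was the highest. Here too the share of all genes that lay apart in this way was not counted. Its LFC was 1.72 against Prm2+/+ (adjusted p 0.574) and 2.49 against Prm2+/- (adjusted p 0.460) in the limma fits. Over this and the alternative fits described below, the LFC against Prm2+/+ ranged from 1.23 to 2.35. Without Prm2+/+ replicate 3, the Csnk2a2 difference from Prm2+/- had an adjusted p of 0.0481 in the limma fit and passed both limits. At the other end stood Golga3, a Golgi protein, with an LFC of -0.26 between Prm2-/- and Prm2+/+ and a range of -0.40 to -0.06 over the same fits. In the sperm-egg interaction list the extremes were 4930451I11Rik at 0.26 and Calr3, a chaperone of sperm surface proteins, at -0.46, the latter with 859 in Prm2+/+ replicate 3 and 57.4 to 130.4 in the other libraries. Neither kept its sign, with ranges over these fits of -0.11 to 0.70 for 4930451I11Rik and -1.54 to 0.76 for Calr3.

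The tissue label and other cell types were checked beside these results. Prm2 itself measured 29757, 29716 and 39665 in Prm2+/+, 30174, 31011 and 34487 in Prm2+/-, and 34660, 36004 and 42766 in Prm2-/- testes, so the count from its 3′ end was not lower in Prm2-/- libraries and does not check the genotype labels. Elongating spermatid markers summed to 208637 to 224995 in Prm2+/+, 204117 to 218182 in Prm2+/- and 202016 to 211849 in Prm2-/- libraries. Round spermatid markers summed to 6369 to 7693, 6059 to 6348 and 6222 to 6475 in the same order. Of the 10 marker lists, that of peritubular cells, given above beside Crisp2, was the only list whose sums in Prm2-/- lay wholly below those in Prm2+/+ libraries, and 0 lists lay wholly above. In Prm2+/- libraries the peritubular and round spermatid sums lay wholly below those in Prm2+/+. Of 52 listed markers of 10 cell types, 51 had a row, 5 were at 0 in every library (the Sertoli gene Fshr and 4 of 5 epididymis genes) and 0 were called in any comparison. Epididymis markers, which would show carry-over of that tissue, summed to at most 3.65 in any library.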

How the data were processed

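Testis RNA of 9 males was sequenced with QuantSeq, a kit that reads the transcript 3′ end. Per the labels' processing notes and the study's methods, the authors trimmed reads with Trim Galore 0.4.5, mapped them to GRCm38 with HISAT2 2.1, quantified genes with StringTie 1.3.3 and used DESeq2. The deposited values are a signal of normalized counts, that is, counts divided by 1 size factor per sample. Whole counts were recovered as multiples of each sample's step (100% of values whole within 0.001 of a step), a weaker sign for Prm2+/- replicate 1, whose step is near 1. They gave 3629929 to 4490411 counts per sample, fewer than the reads per sample that the paper states. As they come from StringTie quantities, they may not be tallies of single reads, and precision is read from them with that limit. Of the IDs, 38520 (99.6%) matched the GENCODE M21 annotation of GRCm38, which gave coordinates and exon lengths.

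Log2(value + 1) of the 14893 genes and loci with enough counts (filterByExpr) was fitted by genotype over all 9 samples with limma 3.58.1 (R 4.3.3), with Benjamini-Hochberg adjustment over all of them. Intervals of LFCs are unadjusted, at 95%. Every listed gene is accounted for. The value in each library was given for the most abundant gene and the one with the largest LFC of each role group, genes with groups that did not overlap, genes varying more than 4-fold, untested genes and paralogs. Genes and lists were chosen with earlier results of these data known. Alternatives were another scaling, pseudocount, filter or sample set, a replicate block, edgeR 4.0.16, DESeq2 1.42.0 and leaving out each sample. The code of the fit was run on simulated data with 4-fold changes, which does not show how well smaller changes are found. A gene lying over another gene in the annotation (12 of the 32) may share its counts. The p-values measure spread between the 3 mice per genotype.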

Additional observations from a re-analysis of the deposited data

How the results depend on the processing

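In 20 alternatives for each of the 3 comparisons (60 fits), 0 of the 30 genes were called in any, and the fit with the replicate number as a block also called 0. The filter of at least 10 counts in every library left 28 of the 30 to be tested, without Zan and Izumo4. Same-numbered samples correlated between -0.04 and 0.04 after removal of group means, so no pairing by number was seen over all genes. A link by number that touches few genes would not show in these values. Over all genes, the comparison of Prm2-/- with Prm2+/+ gave 23 higher and 4 lower calls. The replicate block gave 14 and 1, a minimum of 10 counts in each library 8 and 1, and a fit of the 6 libraries alone 47 and 6. DESeq2 gave 101 and 30 on 9 libraries and 167 and 64 on 6, and leaving out 1 sample gave 28 to 62 calls in all. Why DESeq2 called more was not tested. Crisp2 in Prm2-/- against Prm2+/+ ranged from -0.38 to -0.23 (LFC; adjusted p 0.0935 to 0.838), and against Prm2+/- DESeq2 on 6 samples gave -0.27 with an adjusted p of 0.000592, under the LFC limit. Csnk2a2, not a listed gene, was called against Prm2+/- in 3 of 20 alternatives (2 of them DESeq2) and against Prm2+/+ in 0.

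Signs were followed for 27 LFCs of chosen genes, which left out some tested genes. Among those left out for Prm2-/- against Prm2+/+, Acr, Acrv1, Dkkl1, Eqtn, Fam170b, Spaca4 and Spaca7 also changed sign in some alternative. Capza3, Cd46 and Tmem190 did not. Of the 27 LFCs followed, 16 kept their sign in every alternative. The other 11 were reversed at least once when 1 sample was left out, with ranges of -0.10 to 0.15 (Spaca3), -0.0288 to 0.86 (Spaca1), -0.18 to 2.88 (Izumo4), -1.34 to 0.35 (Zp3r), -0.16 to 1.05 (Spesp1), -0.16 to 0.11 (Zpbp), -0.0469 to 0.90 (Zpbp2), -0.32 to 0.19 (Hyal5), -0.0290 to 0.24 (Actl7a) and -0.0148 to 0.33 (Lyzl4) for Prm2-/- against Prm2+/+, and -0.11 to 0.0428 (Crisp2) for Prm2+/- against Prm2+/+. Spaca3 became 0.000573 with TMM factors, and Zpbp -0.00453 and -0.00427 with DESeq2 on 9 and 6 samples. The mean summed level in Prm2-/- was 38973 with TMM factors. Depth leaves Zan, at 3 to 33 counts per library, and Dcst2 and Tmem95 with little or no precision.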
